A study of Arabidopsis thaliana with 6 samples.

Results

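The IQD and TRM genes of Arabidopsis thaliana encode proteins that bind microtubules and bring other proteins to them. They were read in roots supplied with sulfate or with thiosulfate. Members were chosen by name: every row of the deposited table that is paired with exactly 1 gene, where that gene's symbol is IQD or TRM followed by a number. Where a gene has several rows, the rule takes the row with the highest mean over the 6 arrays. It found 32 genes among the 16548 that could be named, and since each had 1 row, no row was selected on its measured values. The families were proposed with earlier results of these arrays in view. Of these, 17 are IQD genes, out of 33 in the RefSeq gene table, and 14 are TRM genes, out of 34 that carry the name TON1 Recruiting Motif there. The remaining member, TRM82, shares only the letters: RefSeq names it tRNA modification 82, and in yeast the protein of that name is a subunit of a tRNA methyltransferase. It is therefore given apart. TRM32 is listed under another symbol, ATOBGM, and so falls outside the rule, with a log2 difference of 0.07 (95% interval -0.26 to 0.40). No row with exactly 1 gene was found for IQD1 to IQD14, or for TRM3 to TRM14, LNG1 and LNG2 of the TRM family, among others. Family values below are thus those of the named members only.

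IQD proteins are plant scaffolds named for a conserved region with repeated IQ motifs, through which they bind calmodulin, the calcium sensor. Many of them lie on cortical microtubules, and some bring calmodulin and kinesin light chain-related proteins there. TRM proteins carry a short motif that recruits TON1, a protein related to animal centrosomal proteins, and some also bind a regulatory subunit of protein phosphatase 2A. The TON1, TRM and phosphatase complex arranges cortical microtubules and builds the preprophase band, which marks the plane of the coming division. Both families act on the direction of cell growth and on cell shape.

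All plants were of the Col-0 wild type and were grown for 8 weeks at 22 °C in hydroponic culture under short days, in MGRL medium with chloride in place of its sulfate. One group received sodium sulfate at 300 µM as its sulfur source and the other sodium thiosulfate at 150 µM, which supplies as many sulfur atoms because each thiosulfate ion holds 2. Total root RNA of 3 samples per group, labelled as biological replicates, was hybridised to 6 one-colour Affymetrix arrays, and the comparison asks how root transcripts differ between the sulfur sources. The labels do not say whether the replicates were separate cultures, so the spread behind the p-values may be technical.

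Values are log2 expression as deposited, and every difference is thiosulfate minus sulfate on that scale. The correlation between arrays over the 16548 genes was 0.980 to 0.983 within a group and 0.974 to 0.982 between groups. The precision is limited by the number of arrays. In whole roots, fewer cells of a type and less RNA per cell cannot be told apart. Of the lists that mark cell types, few genes could be named: 3 of 18 for dividing cells, 2 of 12 for root hairs and 3 of 19 for green tissue, with none of the endodermis and stele or the root cap and epidermis lists. The root hair expansins EXPA7 and EXPA18 had mean values of 2.61 and 2.36 in sulfate, near the median level of 2.36 over all genes, so little can be said of the root label from markers. The green tissue genes RCA, LHCB4.1 and LHCB4.2 stood at 3.76, 3.19 and 1.995 in sulfate.

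No IQD or TRM gene passed the test over all genes, a limma adjusted p of 0.05 (Benjamini-Hochberg over the 16548 genes), at which 0.0121% of all genes were called. At an unadjusted limma p under 0.05, 3 of the 32 members lay higher in thiosulfate (TRM27, IQD16 and IQD23) and 0 lower, where 5.39% of all genes lay higher and 4.64% lower. Taken in both directions the members' 3 stand against 10.0% of all genes, so the share of calls was near the background. The families differed in their middle values. The median difference was 0.24 over the 17 IQD genes and -0.017 over the 14 TRM genes, against -0.016 over every named gene. The IQD median kept its sign in every alternative run, while the TRM median turned to 0.048 after a further quantile normalization over the named genes and to 0.0035 after one over every row. These medians are a description and were not tested.

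**Figure D1:**
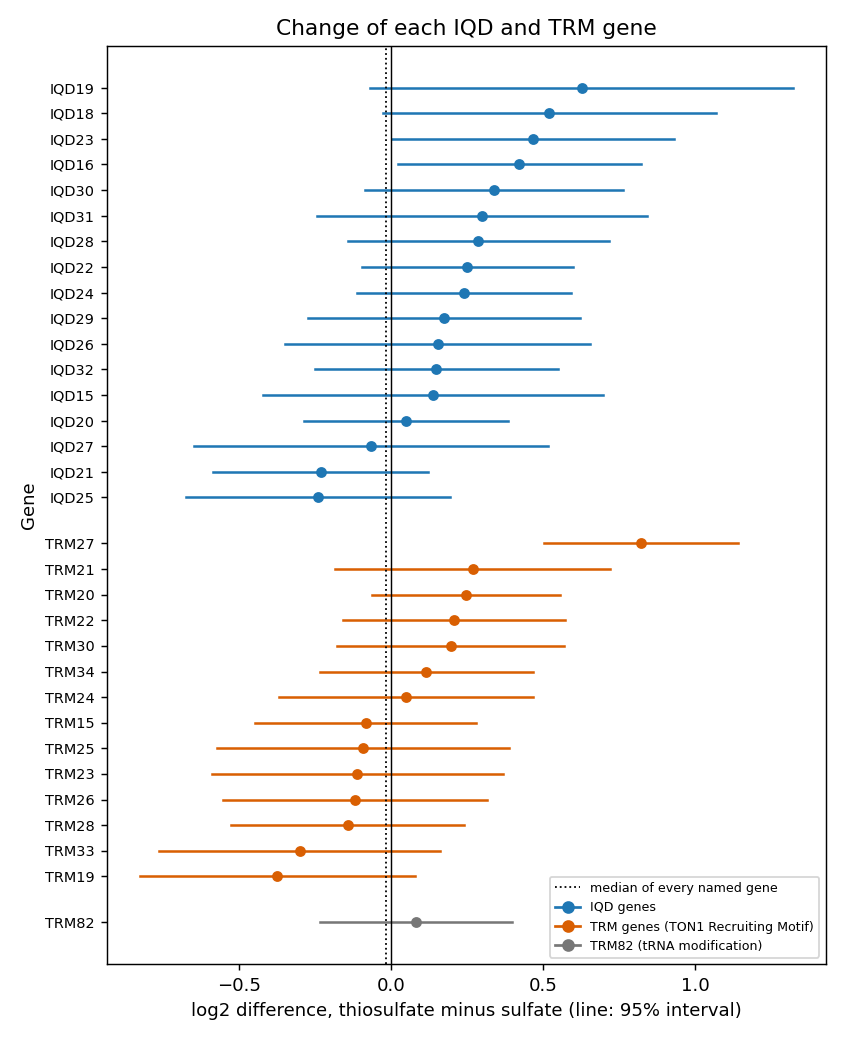
Log2 difference, thiosulfate minus sulfate, of each of the 32 genes (points) with its 95% interval from limma (lines), by family, and the median of every named gene (dotted line). TRM27 has the largest difference, 0.82, and the interval of 3 genes (TRM27, IQD16 and IQD23) lies above 0.

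TRM27 (AT2G36420, chromosome 2) had the largest difference of any member. Its 3 sulfate arrays read 4.48, 4.54 and 4.42, and its 3 thiosulfate arrays read 5.45, 5.27 and 5.19. Every thiosulfate array lay above every sulfate array, with a gap of 0.66 between the groups. The difference of 0.82 (SE 0.14, 95% interval 0.50 to 1.14) is a 1.77-fold higher level in thiosulfate, from 4.48 ± 0.06 to 5.30 ± 0.13 (mean ± SD, n = 3 each). The unadjusted limma p was 0.00024, the 19th smallest of all genes tested, and the adjusted p was 0.20, so TRM27 did not pass. With any 1 array left out its difference stayed between 0.75 and 0.88, and its adjusted p lay between 0.13 and 0.63 across the alternatives. Groups that do not overlap were seen in 3 of the 32 members, against 14.7% of all genes, and all 3 (TRM27, TRM20 and IQD23) lay higher in thiosulfate, as 7.11% of all genes did and 7.57% lay lower.

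TRM20 (AT4G28760) was such a case with a small difference. Its sulfate arrays read 4.98, 5.08 and 4.97 and its thiosulfate arrays 5.33, 5.16 and 5.28. The groups were 0.076 apart at their nearest arrays, and the difference was 0.25 (95% interval -0.06 to 0.56, limma adjusted p = 0.59). TRM21 (AT5G43880) had a difference of 0.27 with overlapping groups: 3.78, 3.65 and 3.68 in sulfate against 4.34, 4.02 and 3.56 in thiosulfate. Its thiosulfate replicate 3 was the lowest of the 6 arrays, and without it the difference was 0.48, while without replicate 1 it was 0.086.

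On the lower side of the TRM family, TRM19 (AT3G53540) differed by -0.37 (95% interval -0.83 to 0.08, limma adjusted p = 0.57), a 1.296-fold higher level in sulfate. Its sulfate arrays read 6.27, 5.72 and 6.30 and its thiosulfate arrays 5.90, 5.79 and 5.48, with sulfate replicate 2 below 2 of the 3 thiosulfate arrays. Without sulfate replicate 2 the difference was -0.56, and it was the only 1 of the 6 fits with an array left out to move TRM19 by over 1.5 times. TRM33 (AT1G01695) differed by -0.30. It read 1.55, 1.57 and 1.07 in sulfate and 0.89, 1.44 and 0.96 in thiosulfate. Its mean over the 6 arrays, 1.25, was among the dimmest 25% of all genes. There a difference is one of listed values and may understate a change. TRM28 (AT5G03670) followed with -0.14, from 2.98, 3.33 and 3.01 to 2.93, 3.18 and 2.77, and was -0.031 without sulfate replicate 2.

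The other 8 TRM genes lay between -0.12 and 0.21. TRM22 had a difference of 0.21, TRM30 of 0.20, TRM34 of 0.12 and TRM24 of 0.050, and these last 3 were among the dimmest 25% of all genes. Without thiosulfate replicate 1 TRM30 was at 0.046, without sulfate replicate 3 TRM22 was at 0.082, and without sulfate replicate 1 TRM34 was at 0.047. TRM15 had a difference of -0.083, TRM25 of -0.093, TRM23 (also among the dimmest 25%) of -0.11 and TRM26 of -0.12. Limma adjusted p-values of these 8 ran from 0.71 to 0.95. Altogether 7 TRM genes had a higher and 7 a lower mean in thiosulfate. TRM15, at 6.79 ± 0.13 in sulfate and 6.71 ± 0.21 in thiosulfate (SD, n = 3), was measured well above the dim range, and its interval of -0.45 to 0.28 excludes a 2-fold change in listed values. TRM82, the tRNA gene, had a difference of 0.08 (95% interval -0.23 to 0.40), which turned to -0.0062 and -0.028 after a further quantile normalization over the named genes and over every row.

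**Figure D2:**
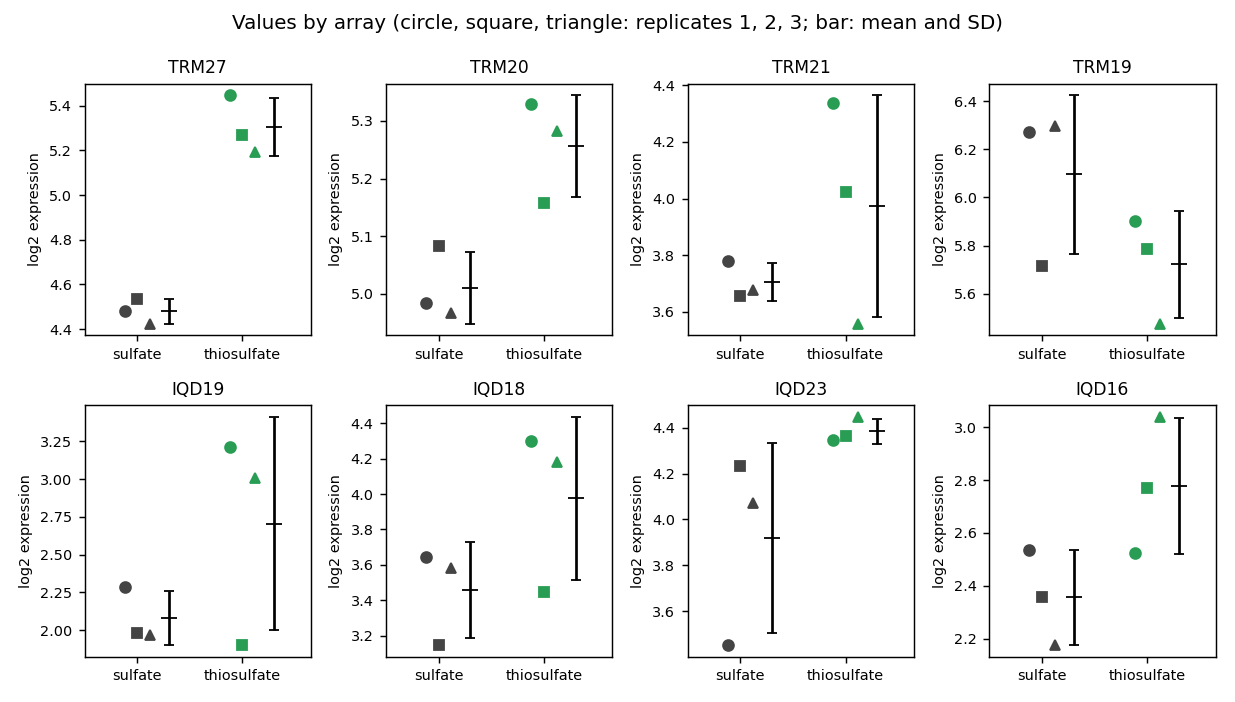
Log2 expression on each array (circle, square and triangle for replicates 1, 2 and 3) with the mean and SD of 3 arrays per group, for 4 TRM and 4 IQD genes. The groups of TRM27, TRM20 and IQD23 do not overlap, and thiosulfate replicate 2 of IQD19 and IQD18 lies with the sulfate arrays.

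Among the IQD genes 14 of 17, or 82.4%, had a higher mean in thiosulfate, where 47.1% of all genes did. None passed over all genes by limma, and 2, both higher, had an unadjusted p under 0.05. That share, 11.8%, is near the 10.0% of all genes at that p in either direction. It is above the 5.39% of all genes that lay higher at that p, and it rests on 2 genes. IQD19 (AT4G14750) had the largest difference, 0.63 (SE 0.31, 95% interval -0.07 to 1.32, limma adjusted p = 0.54). Its sulfate arrays read 2.29, 1.98 and 1.97 and its thiosulfate arrays 3.21, 1.90 and 3.01. Thiosulfate replicates 1 and 3 stood clear of the sulfate arrays, while replicate 2 was the lowest of all 6. Without thiosulfate replicate 2 the difference of IQD19 was 1.03 with a limma adjusted p of 0.21, and without replicate 1 it was 0.37.

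IQD18 (AT1G01110) showed the same split of arrays. It read 3.64, 3.14 and 3.58 in sulfate and 4.30, 3.45 and 4.18 in thiosulfate, a difference of 0.52 (95% interval -0.03 to 1.07, limma adjusted p = 0.52) that became 0.78 without thiosulfate replicate 2. IQD16 (AT4G10640), whose tagged protein has been seen on microtubules, read 2.54, 2.36 and 2.17 in sulfate and 2.53, 2.77 and 3.04 in thiosulfate. Its groups met at 1 array each, and the difference was 0.42 (95% interval 0.02 to 0.82, unadjusted p = 0.041, limma adjusted p = 0.47). With 1 array left out it lay between 0.29 and 0.55. IQD15, named in a run with these, had a difference of 0.14 (95% interval -0.42 to 0.70).

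IQD23 (AT5G62070) was the only IQD gene whose groups did not overlap. Its sulfate arrays read 3.45, 4.23 and 4.07 and its thiosulfate arrays 4.35, 4.36 and 4.45. The thiosulfate arrays lay close together (4.39 ± 0.05, SD, n = 3), while the sulfate arrays spread (3.92 ± 0.41), with replicate 1 far below the other two. The difference was 0.47 (95% interval 0.0020 to 0.93, unadjusted p = 0.049, limma adjusted p = 0.50), and without sulfate replicate 1 it was 0.23. TRM25 lies on the same chromosome with 10 protein-coding genes between them in RefSeq, and its difference was -0.093.

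IQD22 (AT4G23060), known as a target of DELLA proteins, the repressors of gibberellin response, had a difference of 0.25 (95% interval -0.10 to 0.60). It read 2.94, 2.68 and 2.92 in sulfate and 3.20, 2.91 and 3.18 in thiosulfate. IQD30 had a difference of 0.34, IQD31 of 0.30, IQD28 of 0.29 and IQD24 of 0.24. IQD29, IQD26 and IQD32 lay at 0.17, 0.15 and 0.15, and IQD20 at 0.049. Single arrays weighed on most of these. Without thiosulfate replicate 1 the difference was 0.061 for IQD31, 0.13 for IQD28, 0.021 for IQD29, 0.033 for IQD26 and 0.044 for IQD32. IQD30 was at 0.19 without thiosulfate replicate 3 and IQD32 at 0.012 without sulfate replicate 2. IQD22 and IQD24 moved by less than 1.5 times with any 1 array left out. The limma adjusted p-values of all 9 lay between 0.59 and 0.94. IQD31 again had its lowest thiosulfate value on replicate 2 (6.72, 5.69 and 6.31, against 6.07, 5.89 and 5.86 in sulfate).

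Only 3 IQD genes had a lower mean in thiosulfate. IQD25 (AT4G29150) read 1.90, 1.41 and 1.60 in sulfate and 1.0997, 1.64 and 1.44 in thiosulfate, a difference of -0.24 (95% interval -0.68 to 0.19) that was -0.093 without thiosulfate replicate 1 and -0.11 without sulfate replicate 1. IQD21 (AT3G49260), which has a known part in the shape of leaf pavement cells, read 1.203, 1.06 and 1.46 in sulfate and 0.89, 1.09 and 1.04 in thiosulfate, a difference of -0.23 (-0.58 to 0.12) that was -0.12 without sulfate replicate 3. IQD27 (AT1G51960) read 1.54, 1.79 and 1.34 against 1.29, 2.098 and 1.08, and its difference of -0.07 turned to 0.027 after a further quantile normalization over the named genes. All 3 were dim, below the median level of 2.36 over all genes. IQD21 and IQD15 lie close together on chromosome 3, with 12 protein-coding genes between them, and had differences of opposite sign.

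The sign of the IQD differences went with the level. All 12 IQD genes above the median level of the genes tested had a higher mean in thiosulfate, and their median difference was 0.29. Of the 5 below it 2 did. Level is the mean over all 6 arrays, thiosulfate included, so it is not independent of the difference. IQD19 and IQD16, at 2.08 and 2.356 in sulfate, lay above the cut of 2.359 only through their thiosulfate arrays. The count of 12 was thus partly set by how level was taken. Over all genes the share with a higher mean also went with level: in 4 equal bins from dim to bright it was 34.0%, 38.0%, 58.2% and 58.3%, and the median difference over the upper 2 bins was 0.047. Among the TRM genes, 3 of the 8 above the median level and 4 of the 6 below it had a higher mean. The part of level in these counts was not tested.

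**Figure D3:**
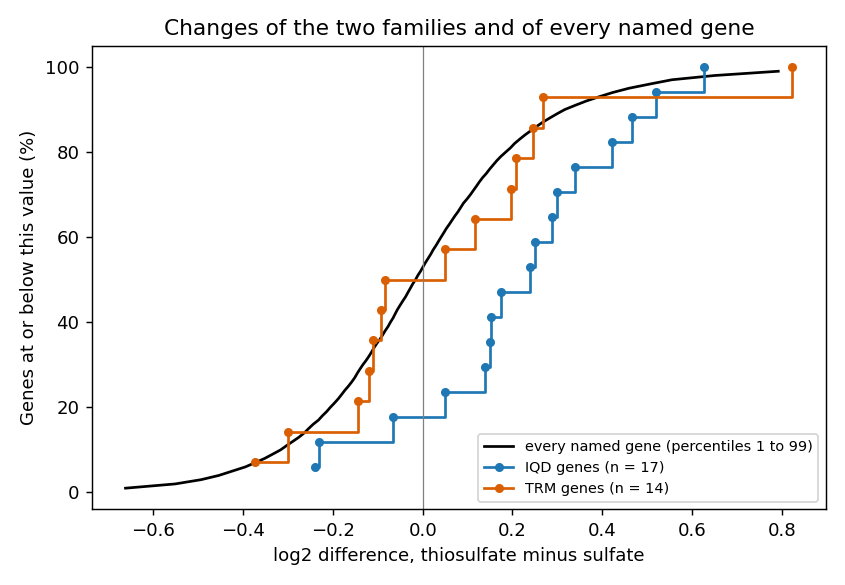
Share of genes (vertical axis, %) at or below each log2 difference, thiosulfate minus sulfate (horizontal axis), for the 17 IQD genes, the 14 TRM genes and every named gene. The IQD steps lie to the right of the curve of every named gene over most of their range, with a median of 0.24, while the TRM median of -0.017 is close to -0.016.

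The IQD shift was not spread evenly over the thiosulfate arrays. When each gene was set against its own mean over the 6 arrays, the median deviation of the 17 IQD genes was 0.19 on thiosulfate replicate 1, -0.037 on replicate 2 and 0.16 on replicate 3. On the sulfate arrays it was -0.018, -0.11 and -0.16. Thiosulfate replicate 2 thus lay below sulfate replicate 1, so the groups overlap. It was the lowest thiosulfate array for 8 of the 17 IQD genes, against 4931 of all 16548. The highest of a gene's 6 values fell on thiosulfate replicate 1 for 7 IQD genes, on replicate 3 for 5 and on replicate 2 for 2. Over all 16548 genes it fell there for 3057, 2528 and 2676. The lowest of the 6 values fell on thiosulfate replicate 1 for 4 IQD genes, and for 3898 of all genes. The IQD median was 0.13 without thiosulfate replicate 1 and 0.31 without thiosulfate replicate 2. Leaving out replicate 2 is bound to raise the difference of genes that read low on it. In that fit 4 IQD genes (IQD19, IQD18, IQD31 and IQD30) had an unadjusted limma p under 0.05, all higher. Over all genes 5.59% were higher at that p. IQD16 and IQD23 were not among these 4. With any other 1 array left out, 0 or 1 IQD gene had an unadjusted limma p under 0.05.

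In the TRM family the array medians were 0.16, 0.074 and -0.11 on the thiosulfate arrays and -0.029, -0.12 and -0.049 on the sulfate arrays, again overlapping. Here thiosulfate replicate 3 was the low one: it was the lowest thiosulfate array for 7 of 14 TRM genes, and the highest for 0. Over all 16548 genes it was the lowest thiosulfate array for 5556 and the highest for 5386. The thiosulfate array that read lowest thus differed between the families.

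**Figure D4:**
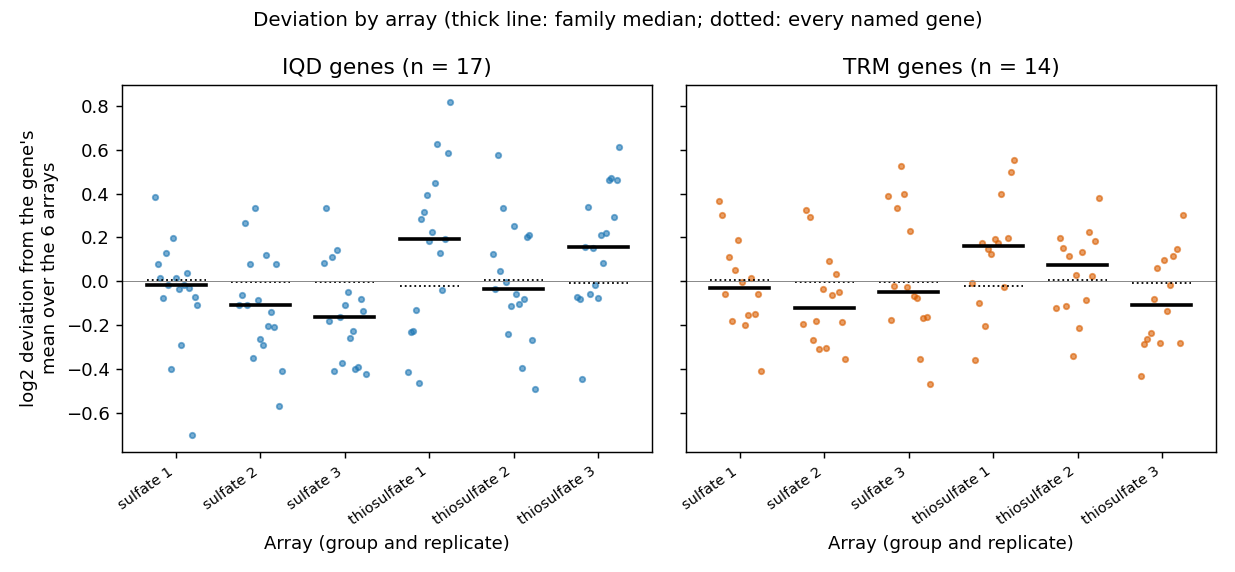
Deviation of each gene from its own mean over the 6 arrays (log2, points) on each array, for the 17 IQD and the 14 TRM genes, with the family median (thick line) and the median of every named gene (dotted line). The IQD median is 0.19 and 0.16 on thiosulfate replicates 1 and 3 and -0.037 on replicate 2.

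**Figure D5:**
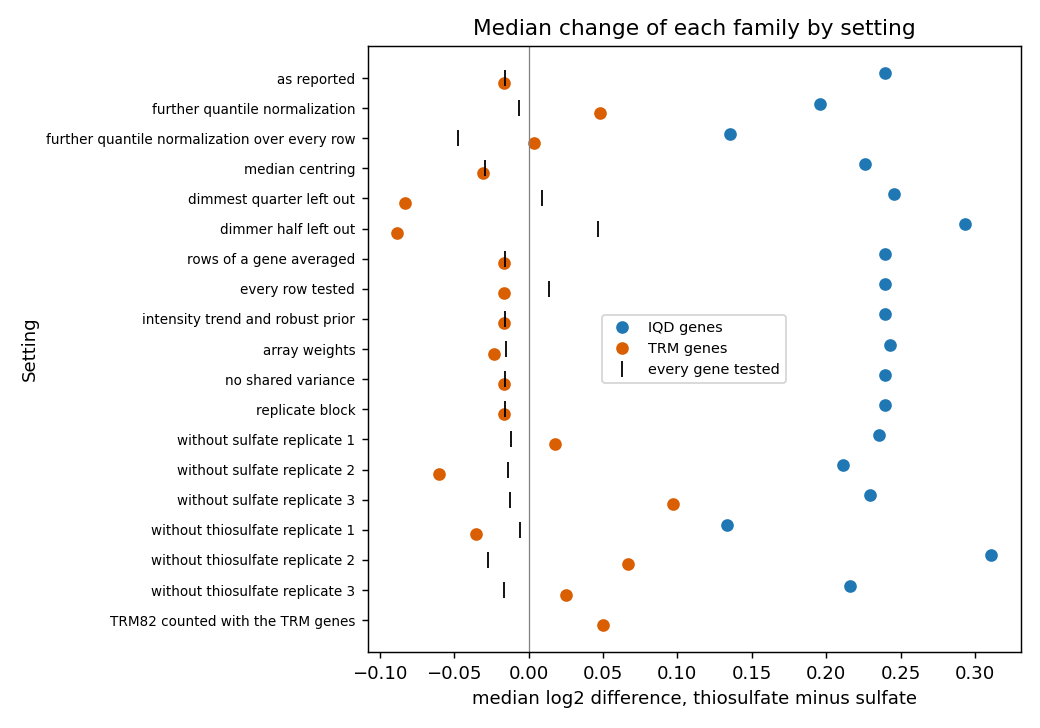
Median log2 difference, thiosulfate minus sulfate, of the IQD and the TRM genes (points) and of every gene tested (ticks) in each setting. The IQD median stays between 0.13 and 0.31, and the TRM median lies on either side of 0.

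The precision bounds what these arrays could show. The median half-width of the 95% interval was 0.43 for IQD and 0.40 for TRM genes, or 1.35-fold and 1.32-fold, against 0.39 for all genes. For 29 of the 32 members the interval excluded a 2-fold difference of the listed values in either direction. The exceptions were TRM27, IQD18 and IQD19, whose upper bounds were 1.14, 1.07 and 1.32.

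Few partners of either family could be named. None of 21 entries of the list of IQD partners, which holds the calmodulins and kinesin light chain-related proteins, could be named. Of 26 TRM partners 1 could. TON1B, one of the paired TON1 genes, read 3.96, 4.07 and 3.96 in sulfate and 4.11, 4.09 and 4.44 in thiosulfate. Its groups did not overlap, by a narrow margin, and the difference was 0.22 (95% interval -0.13 to 0.56, limma adjusted p = 0.68).

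Of 17 genes for tubulins, the alpha and beta subunits of microtubules and gamma-tubulin, 7 could be named. By limma 0 passed over all genes and 0 had an unadjusted p under 0.05, 6 had a higher and 1 a lower mean in thiosulfate, and the median was 0.22 (0.15 to 0.20 after the 3 rescalings). TUB7 (beta-tubulin) had a difference of 0.40 and TUB9 one of 0.22. TUB1 had one of 0.57 that rested on thiosulfate replicate 1 (2.87, 1.39 and 1.18, against 0.89, 1.15 and 1.68 in sulfate). TUBG1, a gamma-tubulin of the nucleation complex, was the lower one, at -0.17, and the 6 higher ones were alpha- or beta-tubulins.

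Of 74 entries for other microtubule proteins 7 could be named, 4 of them with a higher and 3 with a lower mean, and 0 passed over all genes by limma. The split was 5 higher of 7 after a further quantile normalization over the named genes and 3 of 7 after one over every row, since SP1L5 turned to 0.018 in the first and SP1L3 to -0.0035 in the second. WDL3, a relative of WAVE-DAMPENED2, which bundles microtubules, read 5.13, 5.41 and 4.98 in sulfate and 5.68, 5.71 and 5.55 in thiosulfate, with no overlap. Its difference was 0.47 (95% interval 0.12 to 0.83, unadjusted p = 0.015, limma adjusted p = 0.38). MAP65-6, of a family that crosslinks microtubules, differed by 0.46 (95% interval 0.04 to 0.87, limma adjusted p = 0.45). SP1L4, a relative of the microtubule plus-end protein SPIRAL1, differed by -0.29 with a limma adjusted p of 0.54, at a dim level and without overlap.

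Markers of cell types overlapped between the groups. The summed linear level of the 3 dividing cell genes (AUR1, AUR2 and AUR3, the Aurora kinases) ran from 25.6 to 34.8 on the sulfate arrays and from 26.1 to 33.4 on the thiosulfate arrays. That of the 2 root hair expansins ran from 9.13 to 15.2 and from 11.7 to 18.6, highest on thiosulfate replicate 1. That of the 3 green tissue genes ran from 25.2 to 28.0 and from 21.1 to 30.0. Gene by gene, both expansins had a higher mean in thiosulfate (EXPA18 by 0.31, EXPA7 by 0.25). The 3 green tissue genes had a lower one, by -0.21 to -0.093, and these signs held after each rescaling. The 3 dividing cell genes were higher, but AUR1 and AUR3 changed sign under rescaling. None of these markers had an unadjusted limma p under 0.05. AUR2 was dim, at 0.85 on sulfate replicate 1, and no detection call was used. The part of these markers in the IQD values was not tested.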

How the data were processed

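The deposited values are log2 expression, 38408 rows for each of 6 arrays, which, per the submitters' processing notes, the authors obtained by RMA using Transcriptome Analysis Console 4.0. That method corrects background, normalizes quantiles and summarises probes. Genome build, slide and scan date were not found among the labels, and no batch could be tested. Groups and replicate numbers come from sample titles. Rows were named through the platform's annotation (1 gene for 16722 rows, several for 759, none listed for 20927) and updated through RefSeq's gene table (TAIR10.1), which served for names and neighbours only. Rows with several genes or none were not used. For 148 genes with several rows the one with the highest mean was kept, giving 16548 genes.

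Differences were fitted over all of them with limma 3.58.1 in R 4.3.3 (group term, empirical Bayes without trend, two-sided, Benjamini-Hochberg adjustment, threshold 0.05). On 5 simulated sets of 16548 genes with 200 changed, the fit recovered 62.0% of 2-fold and 98.2% of 4-fold changes. So many changed genes ease the adjustment, and on the real arrays 2 genes passed. A lone 2-fold change may therefore be recovered less often here. Level bins are 4 equal bins of the 16548 mean levels, divided at 1.29, 2.36 and 4.37. Values by array are given for members with an unadjusted p under 0.05 and the 3 largest differences per family and direction, and for a few others chosen after their values were seen. The members, lists and tests were chosen with earlier results of these data known. Same-numbered arrays deviated from their group means with correlations of 0.056, -0.025 and -0.031, so replicate numbers were not taken to pair them. Alternatives were further normalizations, filters on dim genes, other row rules, other variance models, the replicate number as a block, and leaving out each array. Python 3.11.15 with pandas 2.3.3 and matplotlib 3.10.9 drew the plots.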

Additional observations from a re-analysis of the deposited data

How the results depend on the processing

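No IQD or TRM gene passed a limma adjusted p of 0.05 in any alternative; the smallest was 0.13, for TRM27 with an intensity trend and robust prior. Over every named gene, 2 passed (1 higher, 1 lower); 1 passed (0 lower) after a further quantile normalization over the named genes and with genes below the median level left out, and 0 (0 higher, 0 lower) when every row was tested (3502 rows at an unadjusted p under 0.05), with no shared variance (1297 genes) and with the replicate block (1717). With 1 array left out between 0 and 2 genes passed, of which 0 to 2 lay higher and 0 lower. Under the replicate block 3 IQD genes and 1 TRM gene had an unadjusted p under 0.05, and the smallest adjusted p of a member was 0.19; it changed no call of a member. The IQD median difference was 0.14 after a further quantile normalization over every row, an alternative chosen after seeing the data, and 0.13 to 0.31 with 1 array left out. The TRM median ran from -0.060 to 0.097 with 1 array left out, highest without sulfate replicate 3, and was 0.050 with TRM82 counted among the TRM genes, also chosen after seeing the data. Of the 3 members with an unadjusted p under 0.05, TRM27 stayed under it in 17 of 17 alternatives. IQD16 did so in 8 of 17 and IQD23 in 4 of 17. Of the 32 members 22 kept their sign in every alternative in which they were tested, 13 of them IQD and 9 TRM. After a further quantile normalization over the named genes IQD27 turned to 0.027 and TRM82 to -0.0062, the latter to -0.028 with every row. With 1 array left out the changes of sign were in IQD27 (-0.37 to 0.14), IQD15 (-0.034 to 0.41), IQD20 (-0.017 to 0.13), IQD26 (-0.0096 to 0.36), TRM15 (-0.17 to 0.036), TRM23 (-0.23 to 0.12), TRM24 (-0.089 to 0.18), TRM25 (-0.27 to 0.083) and TRM26 (-0.28 to 0.019). Other members moved by over 1.5 times with 1 array left out, without a change of sign: IQD25 from -0.36 to -0.093, IQD29 from 0.021 to 0.32, IQD31 from 0.061 to 0.57, IQD32 from 0.012 to 0.26, TRM28 from -0.25 to -0.031, TRM33 from -0.47 to -0.20 and TRM34 from 0.047 to 0.21, for example. The cause was not tested. Signal over background could not be judged, since no detection call was used, and for dim genes a narrow interval does not exclude a change in transcript level.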
